A study of Mus musculus with 6 samples.

Results

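Genes of the amino acid response were followed in mouse cells that carry 1 of 2 Src mutants. The group was a list of 47 genes, picked by symbol: targets of the transcription factor ATF4 and its partners, enzymes that make amino acids and one-carbon units, amino acid transporters, and cytosolic tRNA synthetases. Of these, 46 genes had a probe set that names them alone, out of 18193 genes on the array, and 1 was not analysed here. They were read by 103 of the array's 45101 probe sets, 31 of the genes by several. No measured value entered the choice of the list, but it was drawn up with other results of these arrays known. In all, 43 members were above the floor for dim signals (20.4, the 40th percentile of all signals) on all 6 arrays. A further 2, Cbs and Vldlr, were above it on some arrays, which left 45 for testing. Slc7a11, the cystine and glutamate exchanger, was below the floor on every array.

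When cells run short of amino acids, or misfolded protein collects in the endoplasmic reticulum, kinases such as GCN2 and PERK phosphorylate the translation factor eIF2. Most translation slows, while the mRNA of ATF4 is translated better, and ATF4 then binds C/EBP-ATF response elements in genes that import, make and load amino acids. Among its targets are CHOP (Ddit3), Trib3, which feeds back on ATF4, and Chac1, which degrades glutathione. Because ATF4 is set mostly by translation, its mRNA level is only part of its activity.

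The cells were SYF cells, mouse embryonic fibroblasts without the kinases Src, Yes and Fyn, stably transfected with Src R388A/Y527F or Src D386N/Y527F. Y527F, shared by both, removes the tyrosine through which the Src tail holds the kinase inactive; R388A loses a catalytic arginine whose work imidazole can take over, and D386N loses the catalytic aspartate and is not rescued. Both lines were starved of serum overnight and then left untreated (0 h) or given 5 mM imidazole for 1 h or 12 h. Each of these 6 combinations was read on 1 array of total RNA, and whether a line was 1 clone or a pool of cells is not given in the sources used here. No 12 h array without imidazole was among them, so imidazole and time without serum cannot be told apart, nor can the Src mutant and the cell population that carries it.

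The number of genes above the floor was 12459 to 12944 per array, and the ratio of 3' to 5' Gapdh signal was 0.76 to 0.82. Both Src probe sets were dim, at 19.1 to 72.7 and 22.2 to 107.3; where their probes lie relative to the deleted part of the gene is not known here, so they do not check the labels. All 8 fibroblast markers were above the floor on every array, with a summed signal of 29728.1 to 35140.1. The summed signal of 6 other marker lists stayed at or below 253.3, with Pecam1, Myog, Adipoq, Cd3e and Itgam below the floor throughout. These lists were not silent. Sox10 (62.3 to 90.8), Tubb3 (55.1 to 96.4), Gfap (31.2 to 61.3), Kdr (52.9 to 70.1), Cd68 (34.5 to 52.3), Krt8 and Krt18 were above the floor on every array. The epithelial list moved with the lines: its sum was 158.4, 253.3 and 217.8 at 0, 1 and 12 h in R388A/Y527F, against 123.5, 143.8 and 113.6 in D386N/Y527F, most of it Krt8. Among the fibroblast markers, Thy1 was 34.5 to 52.1 in R388A/Y527F and 132.0 to 165.2 in D386N/Y527F, and Pdgfrb 286.8 to 299.1 and 592.1 to 767.6. The part of these in the line differences given here was not tested. In RNA from whole cultures, fewer cells of a kind and less RNA per cell cannot be told apart.

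The core of the C/EBP-ATF response element, TGATGNAA, was searched on both strands of RefSeq promoters (build GRCm38.p6), from 250 bases before to 50 bases after the annotated start. Of the 46 members, 39 had a promoter entry and 13 of those held the core (33.33%), beside 1219 of 27025 genes in the whole table (4.51%). The members were listed as ATF4 targets, so this share describes the list and not the arrays. Trib3, Asns and 11 others held it, and Slc7a11 held it at 2 places although its probe sets were below the floor. The stretches below belong to the members with a core among those that differed between the lines (Asns, Chac1, Tars, Yars, Nupr1), and to Trib3, which was 3.26-fold higher in R388A/Y527F at 12 h in the GCOS signal and 1.79-fold higher in the second summary. The capitals mark the core as it reads on the gene's own strand, with up to 30 bases on each side, cut at 30 bases from the start.
Asns: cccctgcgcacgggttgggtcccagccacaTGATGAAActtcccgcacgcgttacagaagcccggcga
Chac1: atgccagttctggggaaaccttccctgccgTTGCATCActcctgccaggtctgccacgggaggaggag
Tars: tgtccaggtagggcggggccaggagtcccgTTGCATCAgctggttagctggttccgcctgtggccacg
Yars: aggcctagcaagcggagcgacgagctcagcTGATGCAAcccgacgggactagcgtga
Nupr1: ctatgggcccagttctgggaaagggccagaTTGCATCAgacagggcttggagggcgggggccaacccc
Trib3: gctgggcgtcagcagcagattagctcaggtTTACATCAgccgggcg
They lie at chr6:7693195-7693262 (minus strand), chr2:119351019-119351086 (plus), chr15:11399636-11399703 (minus), chr4:129189876-129189932 (plus), chr7:126625543-126625610 (minus) and chr2:152344031-152344076 (minus), in that order. With the start site as 0, the core began at -23 in Asns, -193 in Chac1, -15 in Tars, 3 in Yars, -110 in Nupr1 and 14 in Trib3. Of all 15 matches among the members, 11 read TGATGCAA, as in Chac1, Tars, Yars and Nupr1.

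**Figure D1:**
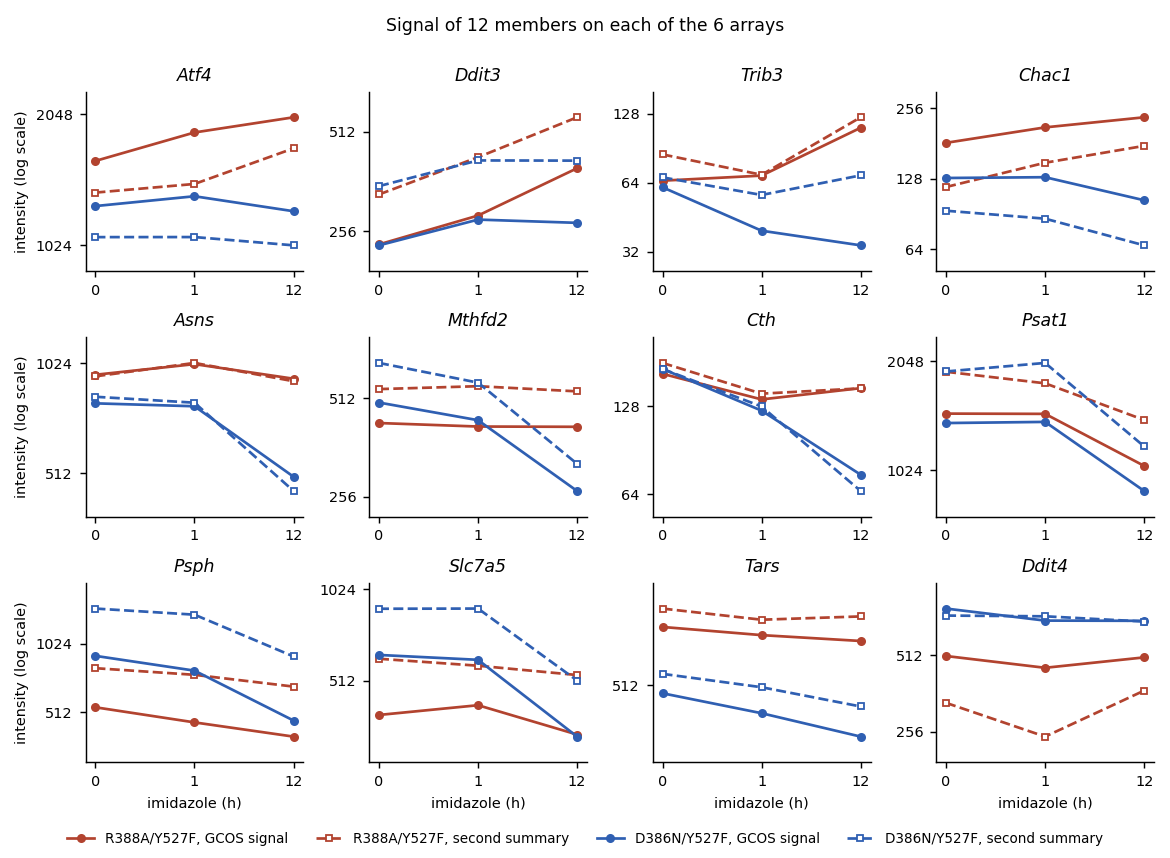
Signal (intensity, log scale) of 12 members against hours on imidazole, 1 point per array, in R388A/Y527F (red) and D386N/Y527F (blue). Filled circles and solid lines are the GCOS signal, open squares and dashed lines the second summary of the same arrays. Asns, Mthfd2, Cth, Slc7a5 and Psph are lower at 12 h in the blue line than at 0 h, and Ddit3, Atf4 and Chac1 are highest at 12 h in the red line.

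The first comparison asks how the lines differed across the 3 times. A limma model of line and time over all 6 arrays called 10 of the 45 members at an adjusted p of 0.05, 7 higher in R388A/Y527F (Atf4, Chac1, Asns, Mthfd1l, Nars, Tars and Yars) and 3 lower (Nupr1, Ddit4 and Psph). Over all 13746 genes tested, 20.9% were called, 9.78% higher and 11.1% lower, so the members' share of calls lay near the background. Their directions were less even: 36 of 45 were higher in R388A/Y527F, with a median log2 difference of 0.16, while the median of all genes tested was -0.01. The second summary called 14 of 45, 10 higher and 4 lower, beside 35.4% of all genes (15% higher, 20.4% lower), and 9 were called in both. The 3 times served as replicates of a line, and 2 residual degrees of freedom were left. In the GCOS signal the R388A/Y527F range lay wholly above the D386N/Y527F range for 10 of 45 members and wholly below for 2. Among all genes tested these shares were 17% and 18.3%. In the second summary they were 13 and 4 of 45, beside 19.1% and 25.5%. Ranges without overlap, given for single members below, were thus common over the whole array. Leaving out the arrays of 1 time brought the count of called members to 6 without 0 h (5 higher, 1 lower) and 2 without 1 h (1 higher, 1 lower). Without the 12 h arrays it was 4, 1 higher and 3 lower. Of the 7 higher calls, only Tars passed there, so most of them depended on the 12 h arrays. None of the 10 turned its sign.

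Among the transcription factors, Atf4 itself was higher in R388A/Y527F. Its signal was 1601.3, 1861.4 and 2016.9 at 0, 1 and 12 h there and 1261.2, 1328.4 and 1227.2 in D386N/Y527F. The ranges did not overlap, and the gap widened from 0 h to 12 h, with R388A/Y527F at 12 h the highest array and D386N/Y527F at 12 h the lowest. The log2 difference was 0.52 ± 0.09 (SE; limma, adjusted p = 0.00428) and 0.50 ± 0.09 in the second summary of the arrays (adjusted p = 0.00825). As the mean of all 3 Atf4 probe sets, 1 of which was below the floor on every array, it was 0.26 and did not pass (adjusted p = 0.0753).

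Nupr1, a small stress-induced chromatin protein that ATF4 induces, went the other way. It gave 398.2, 420.5 and 413.4 in R388A/Y527F, against 560.0, 510.1 and 539.3 in D386N/Y527F, so every R388A/Y527F array lay below every D386N/Y527F array, with little movement over time. The log2 difference was -0.38 ± 0.08 (limma, adjusted p = 0.00997), and -0.39 in the second summary. Its promoter holds the same TGATGCAA core as Chac1 and Tars, which were higher. The other 3 factors were not called: Atf5 (0.28), Cebpg, a C/EBP partner of ATF4 (0.21), and Ddit3 (0.20).

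Of the stress regulators, Chac1, an enzyme that degrades glutathione, had the largest difference that passed. It gave 181.9, 211.7 and 233.7 in R388A/Y527F, against 128.8, 129.8 and 103.5 in D386N/Y527F. The ranges were apart, by a ratio of 1.41 at 0 h and of 2.26 at 12 h. The log2 difference over the 3 times was 0.79 ± 0.16 (limma, adjusted p = 0.00850; 0.85 in the second summary). Trib3, a pseudokinase that feeds back on ATF4, had a log2 difference of 0.87 ± 0.30 that did not pass (adjusted p = 0.0755). It was the noisier gene: 65.3, 68.7 and 111.1 in R388A/Y527F beside 61.1, 39.5 and 34.1 in D386N/Y527F, and its other probe set gave 92.3, 75.6 and 82.9 beside 66.8, 100.2 and 67.7, without that spread. In the second summary Trib3 passed, at 0.49 (adjusted p = 0.0356).

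Ddit4, an inhibitor of mTORC1, was lower in R388A/Y527F, at 509.0, 457.4 and 502.7 beside 782.9, 701.9 and 700.5. In the GCOS signal it was nearly flat over time in both lines, and the ranges were well apart. The log2 difference was -0.57 ± 0.07 (limma, adjusted p = 0.00113). The second summary gave a larger gap, -1.21. There R388A/Y527F was less flat, at 332.7, 245.0 and 371.9, beside 734.7, 729.8 and 695.8 in D386N/Y527F. Sesn2, Stc2, Vldlr and Ppp1r15a, the phosphatase subunit that restores eIF2, had log2 differences from 0.02 to 0.27, and none passed.

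Among the 13 enzymes, Asns and Mthfd1l were higher and Psph lower in R388A/Y527F. Asns, asparagine synthetase, gave 951.7, 1017.5 and 928.3 in R388A/Y527F, against 795.3, 780.9 and 501.6 in D386N/Y527F. The lines were close at 0 h and far apart at 12 h, where the D386N/Y527F array was the lowest of the 6. The log2 difference was 0.51 ± 0.11 (limma, adjusted p = 0.0145), and 0.32 (adjusted p = 0.126) without the 12 h arrays. Mthfd1l, a mitochondrial formate synthetase, had a log2 difference of 0.34 ± 0.10 (adjusted p = 0.0395), which did not pass in the second summary (0.38, adjusted p = 0.0560).

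Psph, which makes the last step of serine synthesis, gave 537.8, 461.7 and 399.9 in R388A/Y527F, against 904.4, 778.9 and 470.4 in D386N/Y527F. Its order was unlike that of Asns: the D386N/Y527F line stood higher at 0 h and 1 h, and at 12 h the lines were nearly level in the GCOS signal, with the ranges overlapping. The log2 difference was -0.58 ± 0.11 (limma, adjusted p = 0.00649; -0.73 in the second summary). In the second summary the ranges did not overlap, at 663.0 to 798.5 in R388A/Y527F and 899.1 to 1458.8 in D386N/Y527F, and the 12 h arrays were 1.36-fold apart.

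No transporter passed in the GCOS signal. Slc7a5, which forms the large neutral amino acid transporter with Slc3a2, came nearest below 0 at -0.38 ± 0.12 (limma, adjusted p = 0.0626). Slc1a4, a carrier of alanine, serine and cysteine, had 0.75 ± 0.24 (adjusted p = 0.0549), but its other 2 probe sets did not share the sign at 1 h, and the second summary gave 0.25. In the second summary Slc6a9, a glycine transporter, was higher (0.49, adjusted p = 0.00809) and Slc38a2, a transporter of small neutral amino acids, was lower (-0.29, adjusted p = 0.00531).

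All 12 members of the synthetase group, which includes the tRNA exporter Xpot, had a positive line difference, 0.04 to 0.65, and 3 passed. Tars, which loads threonine, gave 708.3, 676.7 and 654.9 in R388A/Y527F, against 488.9, 437.3 and 383.7 in D386N/Y527F. The lines did not overlap, and both had their lowest signal at 12 h. The log2 difference was 0.65 ± 0.08 (limma, adjusted p = 0.000853), and Tars and Ddit4 were the 2 that passed without the 1 h arrays. Yars, for tyrosine, gave 317.3, 330.2 and 354.2 beside 248.8, 290.9 and 233.6, without overlap, and a log2 difference of 0.38 ± 0.11 (adjusted p = 0.0343). Nars, for asparagine, had 0.27 ± 0.08 (adjusted p = 0.0463), with 0.15 and no call when its 2 probe sets were averaged. The second summary also called Cars (0.37) and Mars (0.30), for cysteine and methionine, and had 11 of 12 above 0, all but Sars.

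**Figure D2:**
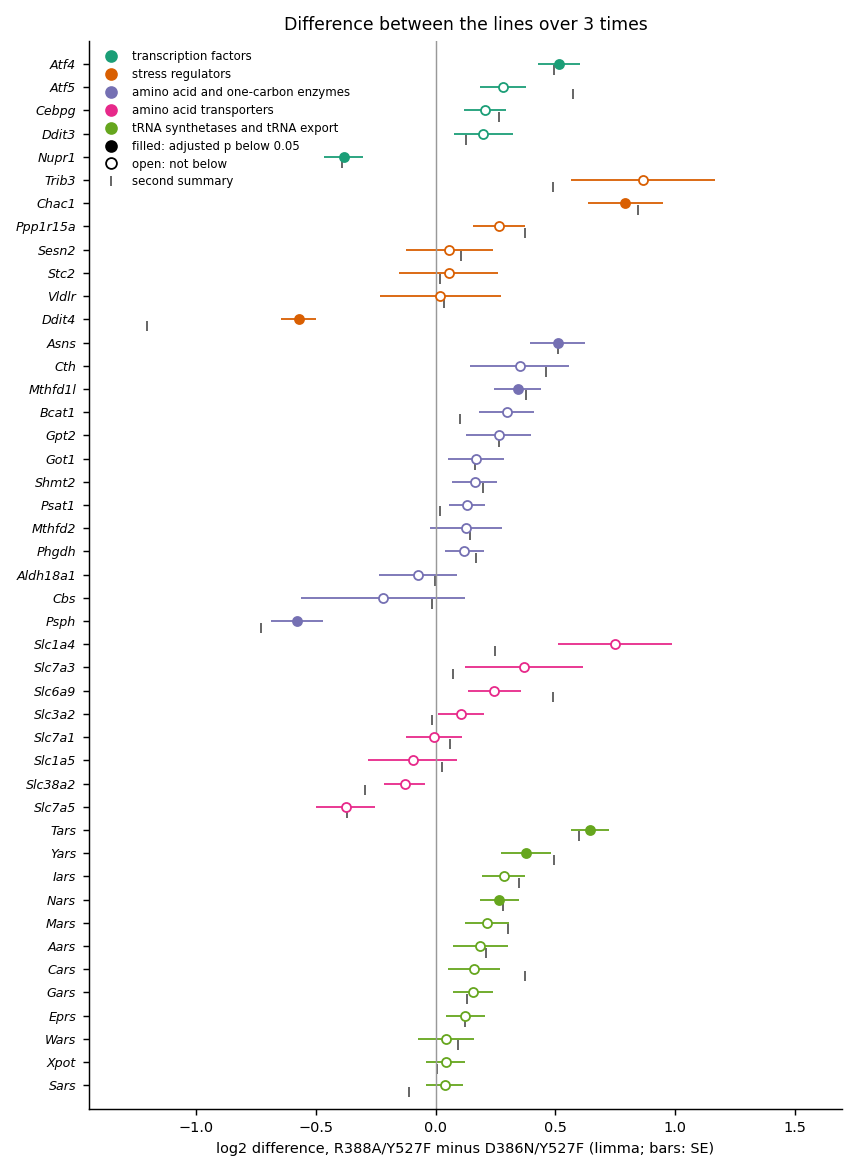
Log2 difference between the lines over the 3 times (R388A/Y527F minus D386N/Y527F, limma) for the 45 tested members, with bars for the SE, coloured by role. Filled points passed an adjusted p of 0.05 (10 members), and grey ticks give the second summary. Most points lie to the right of 0, and Nupr1, Ddit4 and Psph are the filled points to the left.

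The lines were then set against each other at each time, array against array, with no replicate check and no p-value. At 0 h 32 of 45 members were higher in R388A/Y527F, with a median log2 difference of 0.13, and at 1 h 25 of 45, with a median of 0.04. At 12 h it was 40 of 45, with a median of 0.38. Over all genes the share higher in R388A/Y527F was 51.8%, 47.8% and 46.5% at the 3 times, with medians of 0.02, -0.02 and -0.03. The 12 h count was 39 of 45 in the second summary, 40 of 45 after quantile normalization, 38 of 43 with a floor at the 60th percentile and 37 of 45 with the mean of all probe sets.

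Few members passed a 2-fold difference in any of these pairs. At 0 h none did, beside 5.41% of all genes, and in the second summary Ddit4 did, beside 4.36%. At 1 h Slc1a4 was 2.29-fold higher and Cbs, cystathionine beta-synthase, at least 2.55-fold lower, beside 5.94% of all genes; the Cbs signal was below the floor on 3 arrays and its other probe set did not share the sign. In the second summary neither passed at 1 h (Slc1a4 at a log2 difference of 0.01, Cbs at -0.49), and Ddit4 was 2.98-fold lower, beside 4.54% of all genes. At 12 h Trib3 was 3.26-fold and Chac1 2.26-fold higher in the GCOS signal, beside 6.12% of all genes; Trib3 was 1.79-fold higher in the second summary. In the second summary the 12 h members past 2-fold were Atf5, Chac1 and Cth, beside 4.55% of all genes, so Chac1 alone passed in both. Atf5 is a close relative of ATF4, and Cth makes cysteine from cystathionine.

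**Figure D3:**
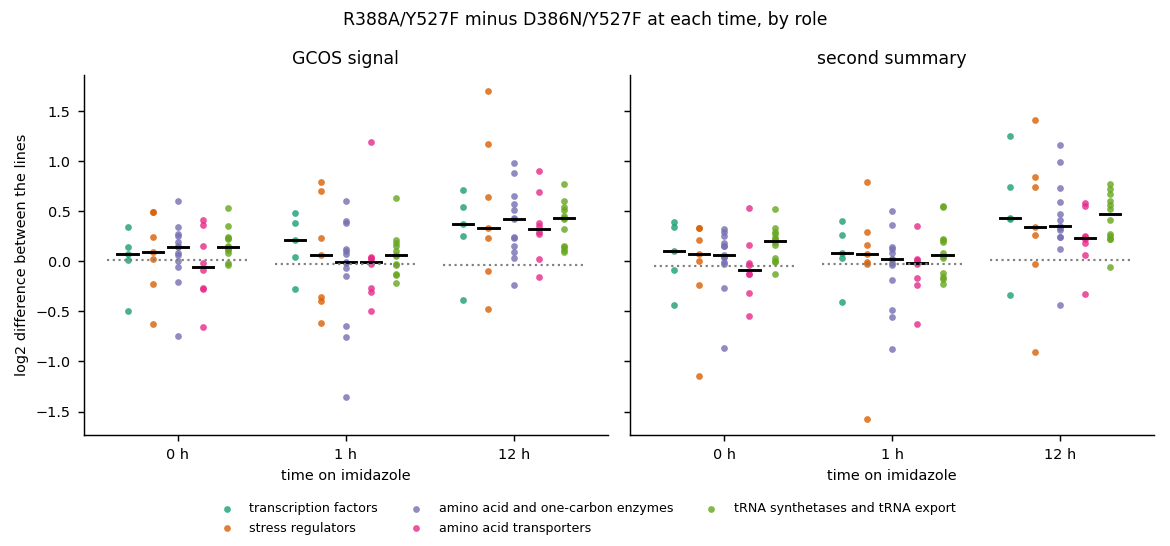
Log2 difference between the lines (R388A/Y527F minus D386N/Y527F) at 0, 1 and 12 h, 1 point per member, coloured by role, in the GCOS signal (left) and the second summary (right). Black bars are the medians of each role, and the dotted line is the median of all genes. At 12 h the medians of all 5 roles lie above the dotted line in both panels.

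The change over 12 h was read within each line. In R388A/Y527F the members were evenly split, 22 higher and 23 lower at 12 h than at 0 h, with a median log2 change of -0.02; 47.6% of all genes were higher. The second summary had 27 higher and 18 lower, with a median of 0.04. In D386N/Y527F 11 were higher and 33 lower of the 44 measured, with a median of -0.20, while 53.3% of all genes were higher. The second summary had 8 higher and 37 lower in D386N/Y527F, with a median of -0.22, where 37.8% of all genes were higher. Both lines' changes rest on single arrays, and the 12 h comparisons between and within lines share those arrays.

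The position of the 12 h arrays shows the same values another way. The D386N/Y527F array at 12 h was the lowest of the 6 for 26 of 45 members, beside 13.9% of all genes tested, and for 28 of 45 in the second summary, beside 19.9%. The 26 included 9 of 13 enzymes and 10 of 12 in the synthetase group. The R388A/Y527F array at 12 h was the highest for 18 of 45 members, beside 16.2% of all genes, and for 20 of 45 in the second summary, beside 17.5%. Those 18 held 6 of 8 transporters, 4 of 7 stress regulators and 3 of 5 transcription factors (Atf4, Cebpg and Ddit3), but 1 of 13 enzymes (Got1, a transaminase that makes aspartate).

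Most enzymes had a lower signal at 12 h than at 0 h in both lines, without passing the test. In the GCOS signal Gpt2 was higher at 12 h in both lines (log2 0.25 in R388A/Y527F and 0.37 in D386N/Y527F), and Got1 in R388A/Y527F (0.30). The Gpt2 rise was seen on 1 probe set only. In the second summary that probe set was lower at 12 h (-0.06 in R388A/Y527F and -0.22 in D386N/Y527F). The other Gpt2 probe sets were lower at 12 h in both lines and both summaries. In D386N/Y527F 11 of 12 measured enzymes were lower at 12 h, with a median log2 change of -0.56, and in R388A/Y527F 11 of 13, with a median of -0.19. The second summary gave 12 of 13 with a median of -0.64, and 11 of 13 with a median of -0.21. In both lines together 10 of 12 were lower, beside 3487 of 12718 genes.

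Cth was the only member past 2-fold over 12 h in D386N/Y527F, beside 2.26% of all genes. Its signal was 171.6, 123.6 and 74.7 at 0, 1 and 12 h in D386N/Y527F and 165.1, 135.0 and 147.5 in R388A/Y527F. The lines were level at 0 h, and the 12 h D386N/Y527F array stood 2.30-fold below its 0 h array. The second summary had Cth at -1.38 on the log2 scale and also Mthfd2 past 2-fold, at -1.03, beside 0.34% of all genes.

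Mthfd2, a mitochondrial enzyme of the folate cycle, followed the same order. It gave 497.4, 439.1 and 266.4 in D386N/Y527F and 430.4, 419.9 and 419.1 in R388A/Y527F. The R388A/Y527F line hardly moved, and the D386N/Y527F line went from the highest array at 0 h to the lowest at 12 h. Its other probe set gave 333.1, 345.0 and 262.6 beside 337.7, 331.1 and 386.4, so the 12 h array was again the lowest.

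Psat1, Phgdh and Shmt2, which with Psph make serine and glycine, were lower at 12 h in both lines. Psat1 gave 1465.9, 1463.5 and 1051.1 in R388A/Y527F, against 1380.5, 1390.6 and 896.1 in D386N/Y527F. Shmt2 gave 768.4, 644.2 and 608.3 beside 732.5, 645.0 and 453.7. In both genes the 12 h arrays were the 2 lowest of their probe set in the GCOS signal. In the second summary this held for Psat1 only. There the R388A/Y527F array of Shmt2 at 12 h (709.1) lay above the 1 h arrays (691.3 in R388A/Y527F and 653.2 in D386N/Y527F). A further Shmt2 probe set was higher at 12 h than at 0 h in the GCOS signal, 203.4 beside 170.0 in R388A/Y527F and 187.4 beside 121.5 in D386N/Y527F. Over both lines Psat1 had the lowest p of all members for 12 h against 0 h, with a log2 change of -0.55 ± 0.09 (limma, adjusted p = 0.108).

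Slc7a5 stood apart from the other transporters. It gave 622.2, 599.7 and 335.5 in D386N/Y527F and 395.2, 425.4 and 340.8 in R388A/Y527F, so the lines differed at 0 h and 1 h and were level at 12 h. Its partner subunit Slc3a2 gave 1196.6, 1089.4 and 1072.7 beside 1125.9, 1107.0 and 1396.7. For Slc3a2 it was the R388A/Y527F array at 12 h that stood out, as the highest. In R388A/Y527F 7 of 8 transporters were higher at 12 h, all but Slc7a5, and in D386N/Y527F 3 of 8. The second summary had 7 of 8 and 2 of 8. With the mean of all probe sets it was 4 of 8 in R388A/Y527F and 1 of 8 in D386N/Y527F, so the count depends on the probe set.

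Ddit3, which encodes CHOP, was higher at 12 h in both lines on the probe set used. It gave 233.4, 285.3 and 396.5 in R388A/Y527F, against 231.9, 277.4 and 271.2 in D386N/Y527F. The lines were level at 0 h and 1 h, and the R388A/Y527F array at 12 h was the highest. Its log2 change at 12 h was 0.76 in R388A/Y527F, against 0.23 in D386N/Y527F, and 0.77 and 0.26 in the second summary. Vldlr, the very low density lipoprotein receptor, was the only member past 2-fold over 12 h in R388A/Y527F (at least 2.18-fold higher, beside 1.87% of all genes), from a 0 h signal of 18.0, under the floor. No member passed there in the second summary, beside 0.153%. Another Vldlr probe set went from 25.4 at 0 h to 12.2 at 12 h, under the floor, in R388A/Y527F. A further one rose there from 70.3 to 101.5, and the rest were below the floor at both times. Both kept these directions in the second summary.

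Within 1 h no member passed 2-fold in R388A/Y527F, beside 1.95% of all genes. In D386N/Y527F 1 did (Cbs, at least 2.55-fold higher, beside 2.18%), from a 0 h signal below the floor, and 0 did in the second summary, beside 0.0724%. The medians of the 1 h changes were -0.02 and 0.01.

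**Figure D4:**
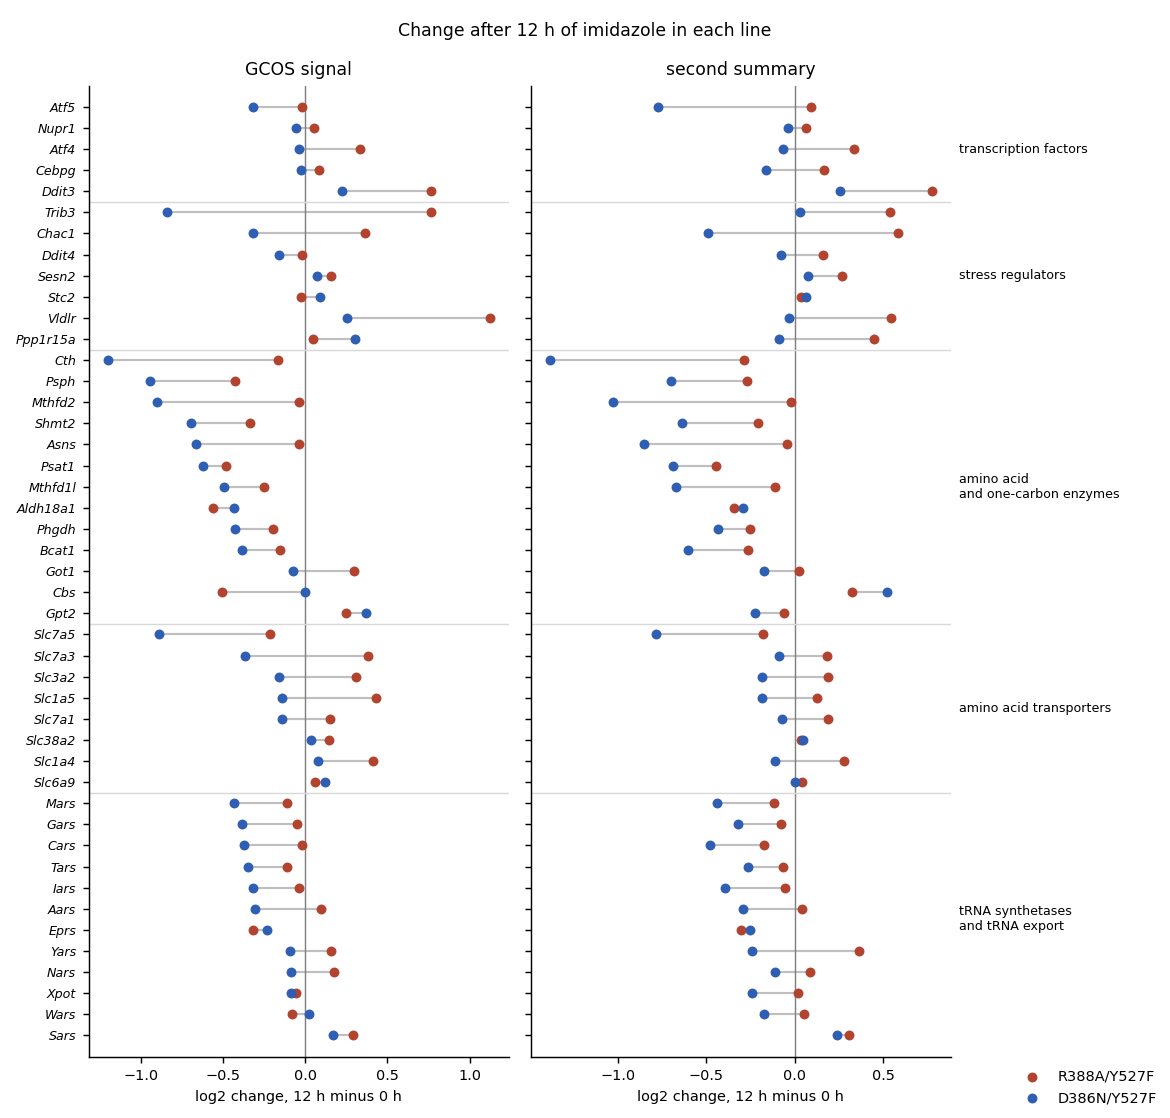
Log2 change from 0 h to 12 h of imidazole for each of the 45 tested members, in R388A/Y527F (red) and D386N/Y527F (blue), in the GCOS signal (left) and the second summary (right); rows are grouped by role. The blue points of the enzymes and synthetases lie mostly left of 0 and left of the red points, led by Cth. Cbs in D386N/Y527F was below the floor at both times in the GCOS signal and is drawn at 0.

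The changes common to both lines did not pass the test. For 1 h against 0 h limma called 0 of 45 members (0 at an unadjusted p under 0.05), and 0% of all genes. For 12 h against 0 h it called 0 (15 unadjusted), beside 0.0145% of all genes, and for 12 h against 1 h 0 (12 unadjusted), beside 0.0218%. Among all genes the unadjusted shares were 3.87%, 8.23% and 8.99%. Of the 15, 9 were enzymes, all with a negative change, and Ddit3 (0.50) and Sars (0.23) were positive. The second summary called 0 members in each, beside 0%, 0.00805% and 0.00805% of all genes, with 0, 14 and 11 members unadjusted, beside 5.09%, 13.5% and 12.7%.

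Whether the lines responded differently was tested with an interaction. With any imidazole against 0 h, limma called 0 of 45 members (0 unadjusted), beside 0% of all genes (3.38% unadjusted), and it called 0 in the second summary (0 unadjusted, beside 3.27%). A further model, chosen after the values were seen, set the 12 h arrays against the 0 h and 1 h arrays of the same line. It also called 0 members, and 0% of all genes, with a lowest adjusted p of 0.95 among members. At an unadjusted p under 0.05 it had 8 of 45 members, or 17.78%, beside 4.87% of all genes, and 40 of 45 were positive, with a median of 0.34 beside -0.01 over all genes. In the second summary these were 14 of 45, or 31.11%, beside 4.6%, with 43 positive and a lowest adjusted p of 0.617.

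The members with the lowest p in that model were Mthfd2 (0.79 ± 0.16), Asns (0.57 ± 0.12) and Slc7a5 (0.60 ± 0.13), each with an adjusted p of 0.95 by limma. The same 3 led the second summary, at 0.89, 0.72 and 0.64. None of these passes the correction, so a difference between the lines in the 12 h response was not detectable with 1 array per group.

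Other genes of the pathway were counted by list with the same model of line and time, in which 20.9% of all genes were called, 9.78% higher and 11.1% lower in R388A/Y527F. Of 15 tested subunits and kinases of eIF2 and eIF2B, 1 was higher in R388A/Y527F (Eif2b3, log2 difference 0.45 ± 0.11, limma, adjusted p = 0.0233) and 1 lower (Eif2ak2, the kinase that senses double-stranded RNA, -0.43 ± 0.13, adjusted p = 0.0494). Of 8 cytosolic synthetases outside the list, 2 were higher and 0 lower: Rars, for arginine (0.59 ± 0.08, adjusted p = 0.00173), and Kars, for lysine (0.38 ± 0.08, adjusted p = 0.0102). At 12 h 7 of the 8 were higher in R388A/Y527F. The 16 mitochondrial synthetases were divided, 3 higher and 2 lower, with Nars2 at 0.69 and Aars2 and Lars2 at -0.80 and -0.62. In the GCOS signal all 16 were lower at 12 h than at 0 h in R388A/Y527F, and 13 of 15 in D386N/Y527F; in the second summary 12 of 16 and 14 of 16 were.

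Of 17 tested further genes reported as ATF4 or CHOP targets, 3 were higher and 4 lower, beside 9.78% and 11.1% of all genes. Atf3, a repressor induced by many stresses, gave 184.3, 202.1 and 171.6 in R388A/Y527F, against 81.2, 58.7 and 56.5 in D386N/Y527F, without overlap (log2 difference 1.52 ± 0.18, limma, adjusted p = 0.000704). Gadd45a, a growth arrest gene, was higher by 1.27 ± 0.11 (adjusted p = 0.000143), and Dnajc3, a chaperone that inhibits PERK, lower by -0.72 ± 0.08 (adjusted p = 0.000531). The differences of Atf3 and Gadd45a were larger than that of any member, and both genes were apart already at 0 h.

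Of 18 other amino acid and one-carbon enzymes, 3 were higher and 5 lower, beside 9.78% and 11.1% of all genes. Shmt1, the cytosolic partner of Shmt2, was 319.6, 372.1 and 380.6 in R388A/Y527F beside 159.2, 162.7 and 255.7 in D386N/Y527F. It was highest at 12 h in both lines, where the probe set used for Shmt2 was lowest in the GCOS signal. The log2 difference of Shmt1 was 0.92 ± 0.13 (limma, adjusted p = 0.00163). Prodh, which degrades proline, had 1.17 ± 0.24 (adjusted p = 0.00997), with 2 arrays of D386N/Y527F below the floor. Of 18 other amino acid transporters, 2 were higher and 1 lower, led by Slc6a15, a carrier of branched-chain amino acids and proline, at 80.4, 80.5 and 107.9 beside 17.0, 17.3 and 26.6, of which the first 2 of D386N/Y527F lie below the floor.

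Of 19 endoplasmic reticulum chaperones and genes of other branches of the unfolded protein response, 2 were called higher and 5 lower in R388A/Y527F, beside 9.78% and 11.1% of all genes. Of the 19, 13 had a negative line difference, with a median of -0.15. The second summary called 2 higher and 10 lower, beside 15% and 20.4% of all genes. Sdf2l1 (-0.61 ± 0.12, limma, adjusted p = 0.00887) and Creld2 (-0.39 ± 0.07, adjusted p = 0.00635), both induced when the folding load rises, were lower, and Xbp1, a transcription factor of the unfolded protein response, was higher (0.42 ± 0.11, adjusted p = 0.0233). In D386N/Y527F 18 of 19 were lower at 12 h than at 0 h, with a median of -0.20, and in R388A/Y527F 12 of 19, with a median of -0.03.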

How the data were processed

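RNA from 6 cultures, each group on its own array, was read on the Affymetrix mouse 430 2.0 array, per the labels. The authors deposited linear intensities from GCOS 1.3, as the submitters' processing notes name it; the mean left after trimming 2% at each end was 150.0 on every array. A workbook deposited by the authors adds a second set of intensities for these arrays, whose method is not given in the sources used here. Each gene took 1 probe set, by the specificity its suffix denotes and then the highest mean signal; 3 further probe sets that also name another gene were left out. Signals below 20.4, the 40th percentile (11.34 in the second summary), were set to that floor, then taken to log2. Members were called by limma 3.58.1 in R 4.3.3 (trend, Benjamini-Hochberg over the 13746 genes that 2 or more arrays showed above the floor, adjusted p of 0.05), fitted with line and time or with line, treatment and their interaction, and tested on simulated data. Pairs of single arrays were read by a 2-fold rule with the brighter array above the floor, with no p. The spread measured is that between times or lines, not between replicate cultures, and the number of arrays limits the precision.

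The members and lists were chosen with earlier results of these data known. Values per array are given for members past a threshold and for others described with them, and up to 3 genes of each pathway list are named by size of line difference. The ranking of the arrays, the 12 h interaction model and the choice of the described members that passed no threshold came after the values were seen.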

Additional observations from a re-analysis of the deposited data

How the results depend on the processing

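No paired analysis was possible because each group had 1 array and no replicate number joins samples; the model of line and time itself compares the lines within each time. The 10 line calls were 9 of the 10 with the second summary (14 members called in all) and with quantile normalization, and all 10 with a floor at the 60th percentile. The count was 6 with the mean of all probe sets (3 higher, 3 lower), 2 with limma without a trend (1 higher, 1 lower), and 0 without a filter on dim genes. Without that filter 18193 genes entered, many at the floor on every array. For the line difference limma then called 0 genes in all (10 members at an unadjusted p under 0.05). Leaving out the arrays of 1 time gave 2 to 6 called members in all. Of the 10, 5 were still called without 0 h, 2 without 1 h and 3 without 12 h. None of the 10 turned its sign under any of these. The counts of members past 2-fold are small and moved: between the lines at 0 h it was 0, and 1 (Ddit4) in the second summary; for R388A/Y527F at 12 h and for D386N/Y527F at 1 h it was 1, and 0 in the second summary, with the higher floor and with the mean of all probe sets; for D386N/Y527F at 12 h it was 1, and 2 in the second summary. The cause of these moves was not tested. The limma calls of members for the common changes and the planned interaction were 0 under every alternative run. Over all genes the most calls for the interaction were 311 of 18193, without the filter. For 12 h against 0 h and against 1 h they were 21 and 20 of 10109, with the floor at the 60th percentile. Of 41 further member probe sets above the floor on all arrays, 35 shared the sign of the line difference at 12 h, 28 that at 0 h, and 28 and 26 the sign of the 12 h change in D386N/Y527F and R388A/Y527F. Dim members such as Cbs, Vldlr, Slc1a4 and Trib3 lie near the floor, where the signal limits what can be read.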
